A study of Hordeum vulgare with 12 samples.

Results

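The stage difference of the mutant inflorescence, W3.5 against W2.0, was described over 18851 of the 29014 barley genes listed. A gene was kept when the authors' mean reached 1 FPKM (read counts scaled by the gene's length and by sequencing depth) in the mutant at either stage. Each mean stood for 3 libraries. The 4 groups used were mutant-W2.0, mutant-W3.5, WT-W2.0 and WT-W3.5 (WT, wild type), all inflorescence of cultivar Golden Promise under normal growth conditions. Every library pooled 15 to 20 spikes. The mutated gene and allele are not named in the sources used here, and the series' design text gives W3.0 as the later stage where the sample labels give W3.5. The labels were followed. Both genotypes share the cultivar background, so the wild-type comparison gives the same stages without the mutation.

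A barley spike grows from an inflorescence meristem that lays down spikelet primordia along its flanks, and each spikelet meristem then gives rise to a floret. Stage names beginning with W usually refer to the Waddington scale of cereal spike development, which the labels do not spell out. On that scale the earlier stage is the time of double ridges and the later one that of floret organ primordia. FASCIATED EAR genes are known from maize, where they include a receptor-like protein of the CLAVATA pathway and a bZIP transcription factor. Their loss enlarges and flattens the inflorescence meristem there. Since the mutated gene is not named, whether it is related to these genes is not known here.

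The files do not pair gene identifiers with names, and 0 of the 29014 identifiers matched the reference table used here. Genes are therefore given by identifier, with no name or role, and the chromosome is the one that the identifier carries. Gene families, floral and leaf marker genes and the mutated gene could not be looked up, so the labelled tissue was not checked against its markers. In whole spikes, fewer cells of a type and less RNA per cell cannot be told apart. The library kit does not mark strand, so overlapping genes, antisense genes and near-identical copies can carry each other's reads.

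Reads of the 12 single libraries were recovered from the printed means for 4811 of the 18851 genes (25.5%), all of them under 16 FPKM in the mutant, and 4681 (24.8%) passed the filter for testing. Depth lay between 63298092 and 75896357 reads per library, and the tested genes had a median of 196 reads per gene and library. The letters A, B and C stand for the deepest to the shallowest library of each group, since replicate numbers are not known. The 3 mutant W2.0 libraries had the lowest correlations among themselves. These were 0.728 to 0.785, against 0.831 to 0.847 among the mutant W3.5 libraries, 0.765 to 0.857 in WT at W2.0 and 0.855 to 0.902 in WT at W3.5. For mutant W2.0 library A the correlation was 0.779 to 0.868 with libraries of the later mutant stage, and 0.728 to 0.783 with B and C of its own group. Library B had 0.766 to 0.806 with the later mutant stage, and 0.783 and 0.785 with A and C. Library C had 0.715 to 0.761 with the later mutant stage, and 0.728 and 0.785 with A and B. The median coefficient of variation of genes at 2 FPKM or more was 23% in the mutant at W2.0, 17.9% in the mutant at W3.5, 16.9% in WT at W2.0 and 16.5% in WT at W3.5.

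Most genes had similar means at the 2 stages. The difference, log2(FPKM + 1) at W3.5 minus that at W2.0, had a median of -0.02 over the 18851 genes, and its central 90% ran from -0.72 (5th percentile) to 0.43 (95th percentile). For 90.4% of genes the means lay within 1.5-fold of each other on this scale. A 2-fold difference, taken as 1 or more on the log2(FPKM + 1) scale, was reached downwards by 477 genes (2.53%) and upwards by 142 (0.753%). More genes were thus at least 2-fold lower than at least 2-fold higher at W3.5. In WT, over the same 18851 genes, 635 had a mean at least 2-fold lower at the later stage (3.37%) and 203 one at least 2-fold higher (1.08%), and the median was 0.06. These counts compare the authors' means and carry no replicate error. At the edge of the rule, the 122 genes whose higher mean lay less than 5% above 1 FPKM had a median difference of -0.0817, and the 127 between 0.95 and 1 FPKM, left out, one of -0.0959.

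**Figure D1:**
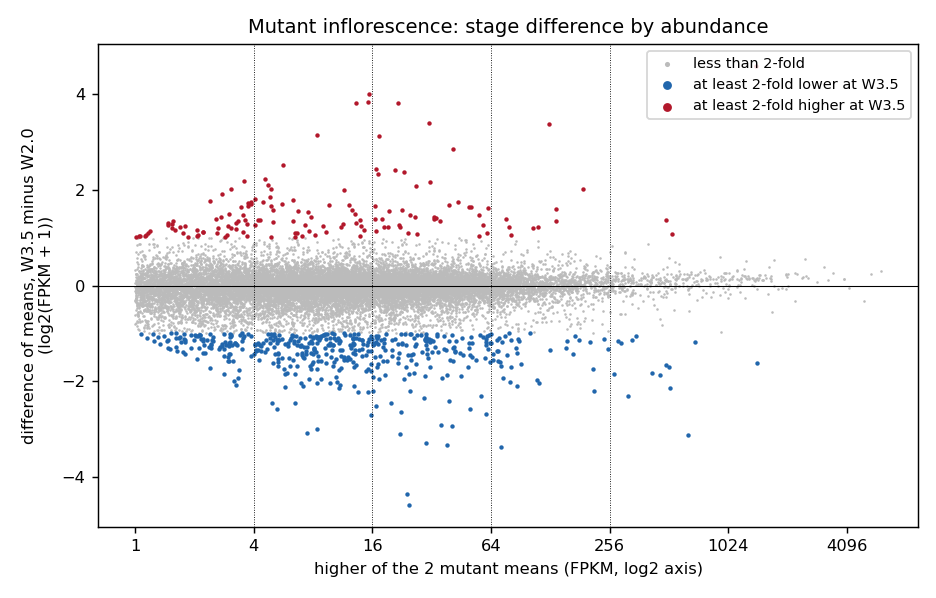
Difference between the authors' mutant means, W3.5 minus W2.0, on the log2(FPKM + 1) scale, against the higher of the 2 means on a log2 axis, for 18851 genes. Each point is a gene, dotted lines mark the abundance bands, and the 477 genes at least 2-fold lower outnumber the 142 at least 2-fold higher in every band.

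By the authors' means, genes at least 2-fold lower outnumbered those at least 2-fold higher in every abundance band. The size of the excess depended on single libraries among the tested genes, all under 16 FPKM in the mutant. Their 92 lower and 24 higher genes at 2-fold became 51 and 36, a smaller excess, when mutant W2.0 library C was left out. They became 138 and 41 without W2.0 library A, and 152 and 31 without W3.5 library C. Without each of the other mutant libraries the counts were 89 to 105 lower and 32 to 34 higher. Bands were set by the higher of the mutant means. Between 1 and 4 FPKM, 94 of 4216 genes were at least 2-fold lower and 48 at least 2-fold higher. Between 4 and 16 FPKM the counts were 199 and 45 of 6694 genes, and between 16 and 64 FPKM they were 130 and 37 of 5866. In the fourth band, from 64 FPKM to 4 times that level, 40 of 1660 genes were at least 2-fold lower and 9 at least 2-fold higher. In the top band, above it, 14 of 415 were at least 2-fold lower and 3 at least 2-fold higher. Genes at 16 FPKM or more made up 42.1% of those kept (7941 genes), with 184 at least 2-fold lower and 49 at least 2-fold higher.

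The medians differed slightly between the bands. The median difference was -0.05 between 1 and 4 FPKM, -0.03 between 4 and 16, -0.01 between 16 and 64 and 0.1 in the top band. The 415 genes of the top band held 40.6% of the mutant's summed FPKM over all kept genes at W2.0 and 42.3% at W3.5. In WT the same genes held 39.6% and 41.2%. Both genotypes thus had a slightly larger share in this band at the later stage, by the means alone.

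The share of genes at least 2-fold lower in WT differed most from the mutant's in the lowest band. Between 1 and 4 FPKM it was 5.38% in WT and 2.23% in the mutant. In the other bands it lay between 2.2% and 3.23% in WT and between 2.22% and 3.37% in the mutant. At least 2-fold higher genes were 1.14% in the mutant and 0.83% in WT in the lowest band, and fewer in the mutant than in WT in each band above it. The bands were set on mutant values, so the WT shares are a description beside them, and the difference between genotypes was not tested here.

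**Figure D2:**
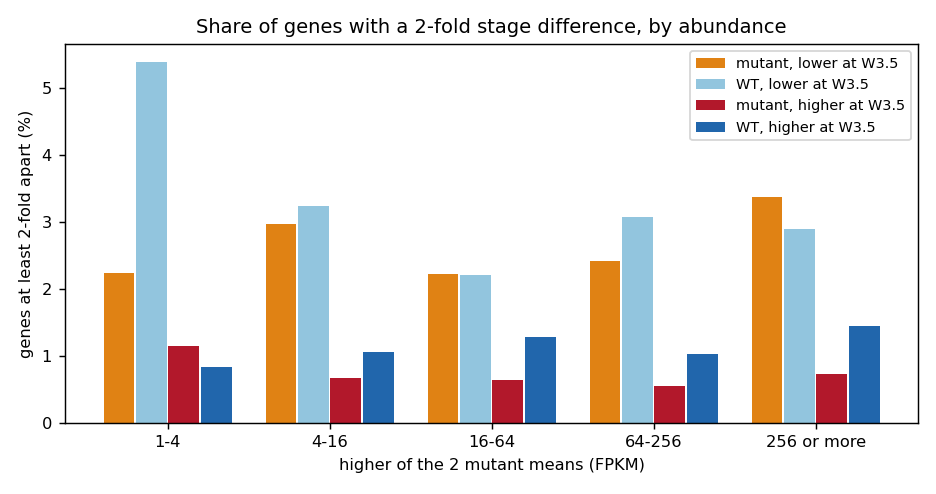
Percent of genes whose means at the 2 stages lay at least 2-fold apart on the log2(FPKM + 1) scale, by the higher mutant mean in FPKM. Bars give the mutant and WT in each direction. The WT share of lower genes in the 1 to 4 FPKM band, 5.38%, stands above the mutant's 2.23%.

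Genes that were 2-fold lower in the mutant were in part lower in WT too. Of the 477, 166 were at least 2-fold lower in WT, which is 34.8% of the mutant list and 26.1% of the 635 in WT, beside 3.37% of all kept genes. Another 12 were at least 2-fold higher in WT, and 299 lay under 2-fold. Their median level in the mutant was 10.9 FPKM and then 3.5 FPKM, beside 7.13 and 3.53 FPKM in WT. Of the 142 higher genes, 33 were at least 2-fold higher in WT, 23.2% of the mutant list and 16.3% of the 203 in WT, beside 1.08% of all kept genes. A further 22 (15.5%) were at least 2-fold lower there. Their medians were 1.9 and 7.41 FPKM in the mutant and 4.6 and 6.26 FPKM in WT. Both lists were chosen on the mutant means, so a wider span in the mutant than in WT is in part built in. Across all 18851 genes, which are not independent replicates, the stage differences of the mutant and of WT correlated at r = 0.32.

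The most abundant genes moved little. The 10 highest in the mutant at W2.0 lay between 2382 and 4975 FPKM, and the same 10 were the highest at W3.5. Their differences ran from -0.32 to 0.39, and 8 of the 10 were higher at W3.5. HORVU5Hr1G072420, the first at W2.0, was at 4975 FPKM and then 3983 FPKM. HORVU4Hr1G011740 was at 4969 FPKM and then 6108 FPKM, while in WT it was at 7342 and then 4676 FPKM. Together the 10 held 5.24% of the summed FPKM at W2.0 and 5.65% at W3.5.

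In the top band, the lowest and the highest difference belonged to neighbouring identifiers on chromosome 5H. HORVU5Hr1G002120 had a mean of 641 FPKM at W2.0 and 72.5 FPKM at W3.5, and HORVU5Hr1G002130 had 57.3 and 1408 FPKM. Their sum was 698 FPKM at W2.0 and 1480 FPKM at W3.5. In WT the first went from 444 to 143 FPKM and the second from 566 to 1091 FPKM, so the signs were the same as in the mutant and the differences smaller, at -1.63 and 0.95 against -3.13 and 4.59. Whether reads pass between these neighbours was not tested. HORVU0Hr1G007480, on unplaced sequence, was at 318 and then 63.5 FPKM, beside 41.3 and 29.7 FPKM in WT. HORVU4Hr1G056740 was at 191 and then 492 FPKM, beside 285 and 307 FPKM in WT. For these last genes the difference of means was larger in the mutant than in WT, with no library value to set beside it. Genes named here and in the bands below were chosen by their mutant differences. A smaller difference in WT is thus in part built in by that choice.

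In the fourth band, from 64 FPKM to 4 times that level, the gene with the highest difference had opposite stage differences in the genotypes. HORVU2Hr1G072930 had 11.2 and then 126 FPKM in the mutant, while WT had 185 and 13.8 FPKM. The differences of means were 3.38 in the mutant and -3.65 in WT. HORVU1Hr1G080200 was the next highest, at 45.4 and 187 FPKM, with 34.7 and 49.6 FPKM in WT. The WT means of the 2 genes with the lowest differences were not lower at W3.5. HORVU4Hr1G023200 was at 72.1 and 6.06 FPKM in the mutant and at 212 and 227 FPKM in WT. HORVU4Hr1G066270 was at 212 and 45.4 FPKM in the mutant and at 60.5 and 84.9 FPKM in WT.

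Between 16 and 64 FPKM, both genes with the lowest differences were near 0 in the mutant at W3.5. HORVU1Hr1G078500 had 24.4 FPKM at W2.0 and 0.0564 FPKM at W3.5, while WT had 0.0535 and 3.01 FPKM. HORVU2Hr1G029500 had 23.9 and 0.203 FPKM, with 0.603 and 0.107 FPKM in WT. Each had the highest of its 4 means in the mutant at W2.0. HORVU7Hr1G091210 was higher at the later stage in both genotypes, with 0.608 and 21.7 FPKM in the mutant and 9.36 and 28.9 FPKM in WT. HORVU3Hr1G064640 had 2.01 and 30.9 FPKM in the mutant, against 30.6 and 37.7 FPKM in WT, so its mutant mean at W2.0 was the one that stood apart.

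Between 4 and 16 FPKM, both genes with the highest differences were close to 0 in the mutant at W2.0 and already present in WT. HORVU5Hr1G076400 had 0.0292 and 15.5 FPKM in the mutant, beside 6.63 and 22.8 FPKM in WT. HORVU6Hr1G066140 had 0.127 and 15.2 FPKM, beside 2.49 and 8.1 FPKM in WT. Both were higher at W3.5 in each genotype. The mutant mean of HORVU1Hr1G073970 was 7.46 FPKM at W2.0 and was listed at 0 at W3.5, the reverse of WT, with 0.00857 and 6.57 FPKM. HORVU1Hr1G063100 had 8.36 and 0.171 FPKM in the mutant and 10.4 and 2.79 FPKM in WT.

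Between 1 and 4 FPKM, both genes with the highest differences were listed at 0 in the mutant at W2.0. HORVU7Hr1G067220 had 3.55 FPKM and HORVU0Hr1G022870 had 3.07 FPKM at W3.5. In WT neither passed 0.0919 FPKM at either stage. The mutant mean of HORVU6Hr1G011110 was 3.26 FPKM at W2.0 and was listed at 0 at W3.5, while WT had 3.63 and 10 FPKM. HORVU4Hr1G002800 had 3.19 and 0.0509 FPKM in the mutant and 4.36 and 0.19 FPKM in WT.

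The library values of HORVU4Hr1G002800 were recovered. The mutant W2.0 libraries A, B and C held 0.127, 0.0542 and 9.38 FPKM, and the W3.5 libraries held 0, 0 and 0.153 FPKM. The mean at W2.0 thus came from library C, and the groups overlapped. Its log2 fold change was -1.14 ± 0.832 (SE) with a limma adjusted p of 0.719. HORVU3Hr1G028080, the third lowest of the band, had 1.77, 1.09 and 7.12 FPKM at W2.0 and 0, 0.0588 and 0.319 FPKM at W3.5. Here all W3.5 libraries lay below all W2.0 libraries, yet the limma adjusted p was 0.281.

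**Figure D3:**
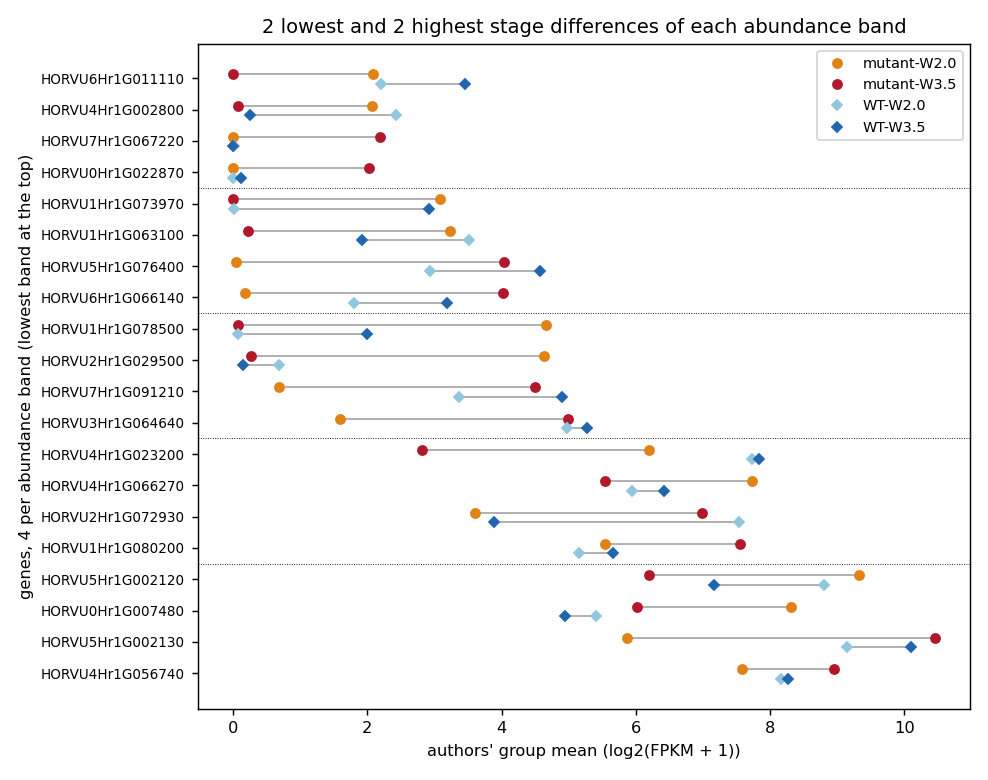
Authors' group means on the log2(FPKM + 1) scale for the 2 lowest and 2 highest stage differences of each abundance band, 20 genes, with circles for the mutant and diamonds for WT and a grey line from W2.0 to W3.5. HORVU2Hr1G072930 runs from 11.2 to 126 FPKM in the mutant and from 185 to 13.8 FPKM in WT.

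Some genes passed from near absence to clear presence or back. Under 0.5 FPKM at W2.0 and at 2 FPKM or more at W3.5 were 26 genes, with a median of 3.64 FPKM at W3.5 and a highest value of 15.5 FPKM. None of the 26 made the same switch in WT: 9 were at 2 FPKM or more at both WT stages, 4 under 0.5 FPKM at both, and 5 made the reverse switch. The other 8 lay in between. The WT mean was higher at W3.5 for 16 of the 26, and their median WT difference was 0.65. In the other direction, 36 genes went from 2 FPKM or more to under 0.5 FPKM, with a median of 2.81 FPKM at W2.0, and 8 of them made the same switch in WT. The WT mean was lower at W3.5 for 28 of the 36, and their median WT difference was -0.99. Of these, 8 of the 26 and 18 of the 36 were among the tested genes. The W2.0 and W3.5 libraries did not overlap for 6 of the 8 and for 10 of the 18, where every W3.5 library lay above every W2.0 library in 5.87% of all tested members and below in 6.75%. The switch was defined on mutant means of the same libraries, so these counts are a description. How many of all kept genes made such a switch in WT was not counted. The WT counts therefore do not show that a switch is particular to the mutant.

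Genes with 2-fold differences were found on every chromosome. The share at least 2-fold lower ran from 2.06% on 4H to 2.84% on 1H, and the share at least 2-fold higher from 0.493% on 4H to 0.942% on 2H, with 1.53% among 852 genes on unplaced sequence. Some stood side by side in identifier order among the kept genes. Among 18843 neighbouring pairs, 63 had both genes at least 2-fold lower, 8 both higher and 4 opposite differences. Lower genes in such runs numbered 106 of the 477, and 12 runs held 3 genes or more. Higher genes in runs numbered 15 of the 142, with 1 run of 3 genes or more. Whether these counts exceed those of genes placed independently was not tested.

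The longest run of lower genes, chosen after its values were seen, held 8 genes on 6H, from HORVU6Hr1G000680 to HORVU6Hr1G001100. Their means were 2.82 to 71.8 FPKM at W2.0 and 0.529 to 21.6 FPKM at W3.5, with differences from -2.11 to -1.05. In WT they lay between 0.287 and 17.1 FPKM at W2.0, and 4 of the 8 had a WT mean 2-fold lower or more at the later stage. The next run held 5 genes on 2H, from HORVU2Hr1G013920 to HORVU2Hr1G013980, at 4.43 to 514 FPKM at W2.0 and 1.35 to 158 FPKM at W3.5. All 5 were at least 2-fold lower in WT as well. The only run of 3 higher genes, on 2H from HORVU2Hr1G028660 to HORVU2Hr1G028720, went the other way in WT. Its mutant means were 0.022 to 0.332 FPKM and then 1.46 to 4.7 FPKM, and its WT means 1.37 to 5.68 FPKM and then 0 to 0.0265 FPKM. Whether the genes of a run share reads was not tested.

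The recovered libraries allowed a test of part of the genes under 16 FPKM. Limma was fitted over 5142 genes that reached 1 FPKM in 3 or more libraries, of which 4681 were among those kept here, 3106 between 1 and 4 FPKM and 1575 between 4 and 16 FPKM. These were 73.7% of the kept genes between 1 and 4 FPKM and 23.5% of those between 4 and 16 FPKM. The mutant stage difference passed a Benjamini-Hochberg adjusted p of 0.05 for 1 gene (0.0194% of those tested), and 475 (9.24%) had an unadjusted p under 0.05. The median SE of a log2 difference was 0.222. In the same limma model, 60 genes passed in WT, 11 higher and 49 lower at W3.5. These counts do not show that the genotypes differ, which the interaction below tests.

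The gene that passed was HORVU1Hr1G041960, on 1H. Its mutant W2.0 libraries A, B and C held 0.437, 0.945 and 0.103 FPKM (mean 0.495 ± 0.424, SD, n = 3), and its W3.5 libraries held 3.14, 3.86 and 4.22 FPKM (3.74 ± 0.551, SD, n = 3). Every W3.5 library lay above every W2.0 library. The gene rose by 1.7 ± 0.22 (SE) on the log2(FPKM + 1) scale, with a limma adjusted p of 0.017. In WT it was at 0.673 ± 0.216 FPKM and then 2.21 ± 0.415 FPKM (SD, n = 3), a log2 difference of 0.94 with a limma adjusted p of 0.0532, and the interaction had an adjusted p of 0.62.

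The size of the difference held better than the call. When each of the 12 libraries was left out in turn, the call was lost for 4 and the difference lay between 1.5 and 1.91. The limma adjusted p was 0.0695 without mutant W2.0 library C and 0.0663, 0.168 and 0.0731 when A, B or C of mutant W3.5 was left out. It was 0.112 with the 6 mutant libraries alone, 0.0542 with a pseudocount of 0.1, 0.0592 with no filter on low values and 0.138 with limma-voom. Across all alternatives the difference ran from 1.5 to 3.3. The largest values, 3.3 with limma-voom and 2.98 with a pseudocount of 0.1, are on other scales than log2(FPKM + 1). The number of genes that passed became 4 without mutant W2.0 library A and 6 without WT W2.0 library A, which enters through the shared spread.

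Among the 10 genes with the lowest unadjusted p, 6 were higher and 4 lower at W3.5, and all 10 had the same sign in WT. The share of all tested genes with the same sign in both genotypes was not counted, so this count has no baseline. The largest difference among the 10 belonged to HORVU3Hr1G026650, on 3H. Its mutant W2.0 libraries held 0, 0.172 and 0 FPKM and its W3.5 libraries 5.01, 8.86 and 11.3 FPKM. The groups did not overlap, and the log2 difference was 3.09 ± 0.53 (SE) with a limma adjusted p of 0.0752. Over 20 alternatives the limma adjusted p ran from 0.00102, without WT W2.0 library A, to 0.445, with limma-voom, and 4 of the 20 passed. It was 0.00656 with the mutant libraries alone and 0.194, 0.249 and 0.241 without mutant W2.0 library B, W2.0 library C or W3.5 library B. In WT, W2.0 library A held 7.25 FPKM while B and C held 0.489 and 0.62 FPKM, and the W3.5 libraries held 9.15, 5.44 and 13.2 FPKM. WT W2.0 library A was thus within the range of the later stage for this gene.

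The lowest p among genes lower at W3.5 belonged to HORVU2Hr1G038040, on 2H, with 4.7, 8.14 and 8.49 FPKM at W2.0 and 2.31, 1.8 and 1.49 FPKM at W3.5. Its log2 difference was -1.47 ± 0.24 (SE), limma adjusted p 0.0752. HORVU4Hr1G081800, on 4H, had 4.05, 6.37 and 5.6 FPKM and then 1.28, 2.17 and 2.14 FPKM, a difference of -1.14 ± 0.19 (SE) with the same limma adjusted p. Neither gene's groups overlapped. In both, W2.0 library A was the lowest of its group. For each gene the limma adjusted p was 0.0266 without that library, 0.194 without W2.0 library B, 0.249 without W2.0 library C and 0.156 with limma-voom. Of 20 alternatives, 4 passed for the first gene and 3 for the second.

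Library C of the mutant at W2.0 carried many of the 2-fold lower genes. Of the 92 tested genes with means at least 2-fold lower at W3.5, C was the highest W2.0 library in 59 (64.1%), against 38.3% of all tested members. Library A was the lowest in 55 of the 92, beside 2122 of all 4681 tested members. In 44 of the 92 (47.8%) the highest W2.0 library was more than 2-fold above the next, against 10.6% of all tested members. The same held for 14 of the 24 tested genes at least 2-fold higher (58.3%). At W3.5 the highest library was more than 2-fold above the next in 46 of the 92 (50%), against 8.63% of all tested members. For the 24 it was 6 (25%). W3.5 library C was the highest of its group in 48 of the 92 (52.2%), against 30.2% of all tested members. Every W3.5 library lay below every W2.0 library in 48 of the 92, where the same held for 6.75% of tested members. None of the 92 passed the limma test, 66 had an unadjusted p under 0.05, beside 468 of the 4681 tested members, and limma-voom passed 0 of all genes. Of the 24 tested genes at least 2-fold higher, 1 passed, 21 had an unadjusted p under 0.05 and 20 did not overlap, beside 5.87% of tested members with every W3.5 library above every W2.0 library. The means that chose both sets come from the same libraries, so neither these shares nor these p-values are separate support. Over all 4681 tested members, 316 had every W3.5 library below every W2.0 library and 275 above.

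Leaving out a library moved these counts. The 92 lower genes became 51 without mutant W2.0 library C, 138 without W2.0 library A and 152 without W3.5 library C. The 24 higher genes became 31 to 41, with 36 without W2.0 library C and the most without W2.0 library A. Genes above 16 FPKM had no recovered libraries, and the part of single libraries in their means was not tested.

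**Figure D4:**
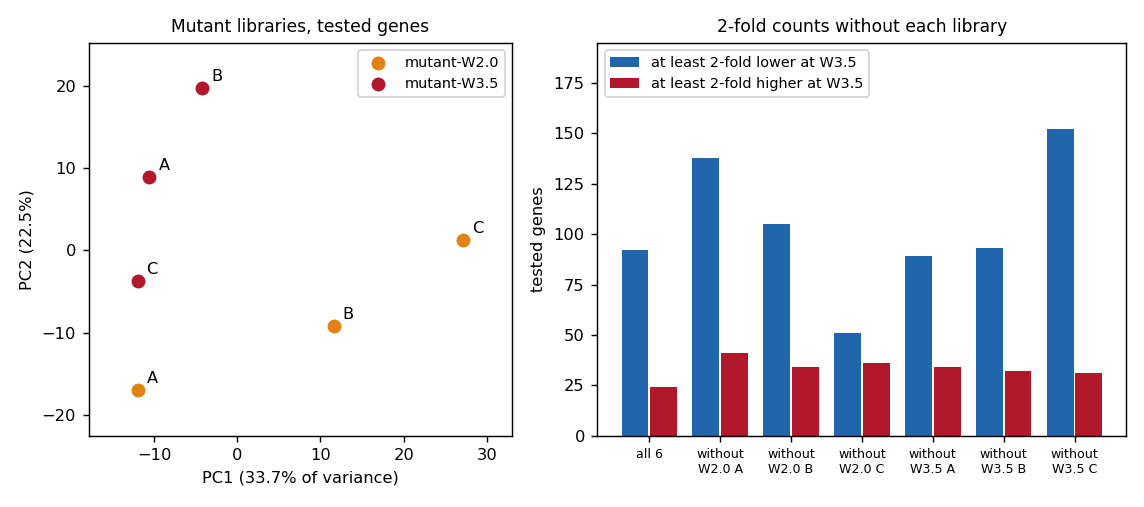
Left, the 6 mutant libraries on the first and second principal components of tested genes, 33.7% and 22.5% of the variance. W2.0 library A, at -11.98 on the first, lies beside the W3.5 libraries (-11.99 to -4.19) and B and C lie at 11.57 and 27.15. On the second, A is the lowest at -17.01, nearest to W2.0 B at -9.17, and the W3.5 libraries lie at -3.77 to 19.74. Right, tested genes at least 2-fold lower or higher by the means of all 6 mutant libraries and without each in turn. The lower genes run from 51 to 152.

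The interaction asked whether the stage difference of the mutant differed from that of WT, gene by gene. In the limma fit, 2 of 5142 genes passed (0.0389%), and 411 had an unadjusted p under 0.05. HORVU1Hr1G076100, on 1H, had 1.32, 1.79 and 1.95 FPKM in the W2.0 libraries of the mutant and 2.12, 2.86 and 2.39 FPKM in those of W3.5. In WT it had 10.9, 7.13 and 9.17 FPKM and then 2.59, 2.58 and 1.87 FPKM. It was thus low in the mutant at both stages and high in WT at W2.0 alone. The interaction was 1.95 ± 0.26 (SE) with a limma adjusted p of 0.0227, while the mutant's own difference, 0.37, had a limma adjusted p of 0.561.

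HORVU5Hr1G097870, on 5H, had 3.52, 3.44 and 3.64 FPKM in the W2.0 libraries of the mutant and 2.15, 2.59 and 2.18 FPKM in those of W3.5. In WT it had 2.19, 2.02 and 2.24 FPKM and then 4.49, 4.58 and 5.1 FPKM, so the groups did not overlap in either genotype and the signs were opposite. The interaction was -1.32 ± 0.19 (SE) with a limma adjusted p of 0.0318. The mutant's own difference, -0.46, had a limma adjusted p of 0.302. When each of the 12 libraries was left out in turn, the call of HORVU1Hr1G076100 was lost for 7 and that of HORVU5Hr1G097870 for all 12, with limma adjusted p up to 0.123 and 0.144. The interactions themselves stayed between 1.82 and 2.09 and between -1.38 and -1.27. HORVU1Hr1G076100 did not pass with limma-voom (adjusted p 0.227), nor HORVU5Hr1G097870 with RLE size factors in limma (adjusted p 0.0665).

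**Figure D5:**
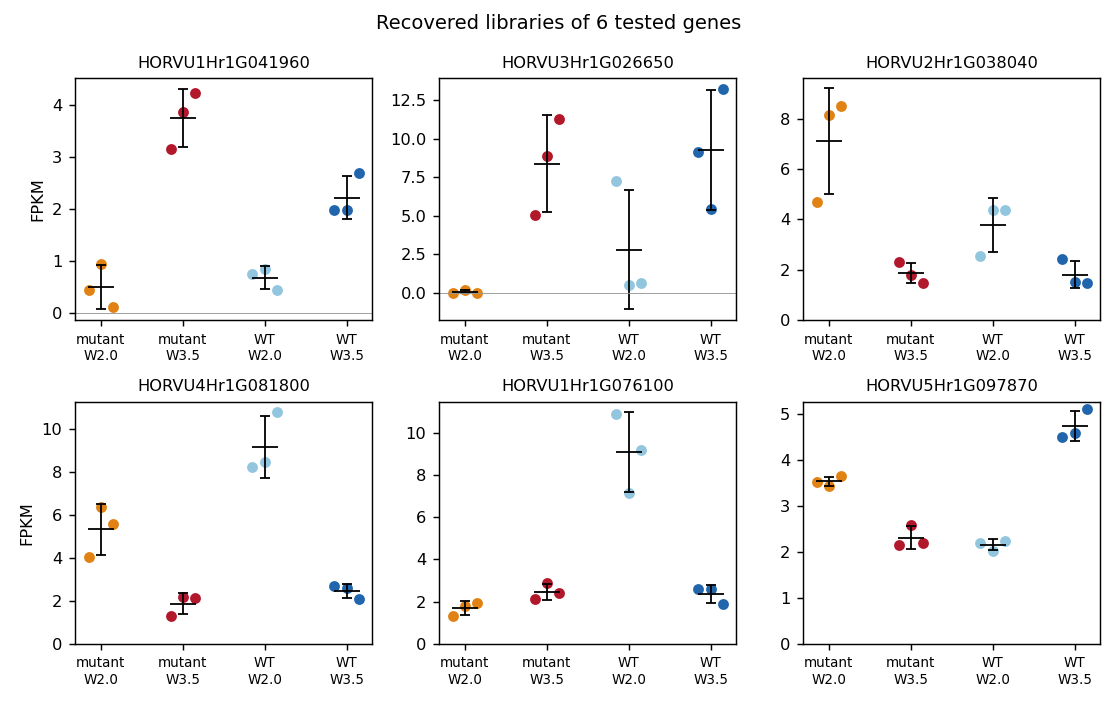
FPKM in each recovered library (points, A to C from left to right), with group mean and SD (n = 3), for 6 tested genes: the 1 gene that passed the mutant stage test, 3 of the genes with the lowest p, and the 2 genes that passed the interaction. HORVU1Hr1G041960 lies, in the mutant, at 0.103 to 0.945 FPKM in the W2.0 libraries and at 3.14 to 4.22 FPKM at W3.5.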

How the data were processed

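RNA of pooled spikes was sequenced after TruSeq version 2 library preparation, per the labels' protocols. FastQC, HISAT2 2.0.0 and HTSeq 0.11.2 are named in the submitters' processing notes, and the sources used here do not give the build, the annotation or the handling of shared reads. The deposited table held FPKM that the authors averaged over 3 libraries per group, a unit read from the values. Members, lists and tests were chosen with earlier results of these data known.

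The printed digits allowed whole reads of the 12 libraries and a gene length to be searched for each gene, with numpy 2.4.6 and numba 0.67.0. Genes were used where a single solution had a probability above 0.99 and a length up to 5000 bases. The search gave more weight to modest spread between libraries, so genes of large spread are recovered less often. These weights and the length limit were set after first test results had been seen, because the search had accepted implausible solutions. Pairs of mutant libraries of one stage differed by 15.7 to 30.9 times what counting alone gives (genes with 20 or more reads in both together), and no library was treated as a repeat of another. Whether they are separate cultures rests on the labels, which call them biological replicates.

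Limma 3.58.1 (R 4.3.3) was run with its mean-variance trend option on log2(FPKM + 1) values of the 12 libraries, with 4 group means. Fold changes on this scale understate changes of low genes. It was checked on simulated data. Genes named were the 2 lowest and 2 highest differences per band, the most abundant, and those of lowest p; the planned rule was longer, and was shortened because the identifiers carry no names.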

Additional observations from a re-analysis of the deposited data

Results flagged for a closer look

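The stage effect differed between mutant and wild type, by the limma interaction over 5142 genes, for HORVU1Hr1G076100, with an interaction of 1.95 on the log2(FPKM + 1) scale. It differed in the other direction for HORVU5Hr1G097870, at -1.32. The first did not pass with limma-voom (adjusted p 0.227) or without 7 of the 12 libraries in turn. The second did not pass with RLE size factors in limma (adjusted p 0.0665) or without any of the 12 in turn.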

How the results depend on the processing

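The signs of the 10 stage differences of lowest p and of both interactions held under each alternative run. For each of these genes the mutant W2.0 and W3.5 libraries did not overlap. Both interaction genes had separated libraries in WT as well, with the opposite sign. Leaving out 1 library or changing the pseudocount could thus not turn these signs. Genes named by their means were recomputed with another pseudocount and centring alone, which could hardly turn their signs, and the most abundant genes and the runs were not recomputed. The count of genes passing in the mutant stage test, 1, was 0 with no filter on low values and 0 with limma-voom, where limma found 857 and 453 genes at an unadjusted p under 0.05. It was 4 with a minimum of 2 FPKM and 3 with RLE size factors, and ranged from 0 to 6 on leaving out 1 library (wild-type libraries added after seeing the data). The interaction count, 2, was 1 with RLE size factors and 1 with limma-voom, and 0 to 2 on leaving out 1 library. RLE size factors moved the median interaction of all genes from -0.104 to 0.01. Equal weight for every dispersion and no length limit in the recovery, the settings first used and also added later, left 1 and 2 genes. Genes at least 2-fold lower by the means, 477, became 824 with a pseudocount of 0.1 and 43 at a 4-fold threshold. Those at least 2-fold higher, 142, became 269 with a pseudocount of 0.1, 94 with a minimum of 4 FPKM, 83 with 1 FPKM required at both stages and 24 at a 4-fold threshold. Among tested genes, leaving out 1 library gave 51 to 152 lower and 31 to 41 higher. No paired analysis was possible because the recovered libraries carry no replicate number. edgeR was not run on the recovered reads. Genes above 16 FPKM had no recovered library values.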
